A study of Bos taurus with 14 samples.

Results

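The transcripts described here belong to 8 genes of mitosis and DNA replication: CDK1, CCNB1, CCNA2, RRM2, PCLAF, NCAPG2, HASPIN and TOP2A. They were chosen by their measured changes between day 0 and day 7, which in earlier results from these same arrays ran in opposite directions in liver and in blood neutrophils. Their changes with time are therefore given below as a description, without tests. A probe was found for 7 of the 8 genes, 1 probe and 1 spot each, among 15011 probes on the array, of which 7105 carried one of 6897 gene symbols. No probe was found for TOP2A, the topoisomerase that untangles replicated chromosomes.

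Holstein cattle (Bos taurus; heifers or steers, with the sex of each animal not given in the sources used here) were fed β-cryptoxanthin, a carotenoid pigment that can be converted to vitamin A, at 0.2 mg per kg body weight on day 0. Liver was sampled from 3 of them (animals 58, 61 and 66) and neutrophils were taken from the blood of 4 others (animals 25, 26, 32 and 34). Each animal gave a sample on day 0 and another on day 7, so the 4 groups were liver day 0, liver day 7, neutrophil day 0 and neutrophil day 7, on 14 arrays in all. Every animal had received the compound and no untreated animals were analysed here, so the compound and the passage of 7 days cannot be told apart.

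A cell that divides first copies its DNA in S phase and then separates the copies in mitosis, and most of the genes that serve these steps are switched on only in cycling cells. CDK1 is the kinase that drives entry into mitosis, with cyclin B1 (CCNB1) and cyclin A2 (CCNA2) as its activating partners. Mature blood neutrophils have left the cell cycle, most hepatocytes of an adult liver are quiescent, so transcripts of this kind are usually scarce in both.

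The measurement of each gene rests on a single 60-base probe. A stretch of 30 bases of each is shown, 5′ to 3′ as the array files give it, so that what each spot reads can be seen. Capitals mark AATAAA or ATTAAA, hexamers that often precede the cleavage and polyadenylation site of a transcript.
CDK1: tttactgttcatctctggttttgtcttgta
CCNB1: atactacctgcaAATAAAactccatgtgcc
CCNA2: gtaacagtgaaaagactgcctttgttttct
RRM2: ttgagtactgcacaagtgttcagtgatttc
PCLAF: aaagtaatgttaATTAAActgaacctatac
NCAPG2: cagactctgagtAATAAAgtggtggcaaca
HASPIN: aatcacagagaagcagaatttatccatgat
AATAAA was present on the printed strand of the CCNB1 and NCAPG2 probes and of 11.3% of all probes, and ATTAAA was present in the PCLAF probe and in 4.02% of all probes; the other strand was not searched. The GC content of the 7 probes lay between 35.0% and 41.7%, below the median of 43.3% over all probes. The files name the CDK1 probe CDC2 and the PCLAF probe KIAA0101, which are older names of the same genes. The RRM2, NCAPG2 and HASPIN probes were matched through the gene number in the files and a RefSeq gene table. No genome build is given in the sources used here, so no coordinates are stated.

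Levels are given as scaled signal, the processed spot intensity divided by the 75th percentile of its array and set so that this percentile equals 1000. Because probes differ in how strongly they bind, a level is compared only with levels of the same probe. Signals of these genes were low, and some spots did not pass the scanner software's flag for signal well above background. Such values are named below as not well above background. Tissue is bulk RNA, so fewer cells of a type and less RNA per cell cannot be told apart. Liver values are listed for animals 58, 61 and 66 and neutrophil values for animals 25, 26, 32 and 34, always in that order.

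In liver, the CDK1 probe gave 18.9, 58.1 and 42.6 on day 0 and 10.3, 24.8 and 12.9 on day 7. The signal was lower in all 3 animals, but the highest day 7 value, in animal 61, was above the lowest day 0 value, in animal 58, and only the day 7 spot of animal 61 was well above background. The change was -1.28 ± 0.19 on the log2 scale (SE of the limma fit, n = 3), a level on day 0 2.42 times that of day 7. In neutrophils, the same probe gave 23.8, 10.5, 23.4 and 45.8 on day 0 and 75.4, 79.6, 47.8 and 87.7 on day 7. Every day 7 value lay above every day 0 value, although animal 32 on day 7 was close to animal 34 on day 0, and the day 0 spot of animal 26 was not well above background. The change was 1.64 ± 0.38 (log2, n = 4), or 3.11-fold.

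CCNB1, whose protein accumulates before mitosis and is destroyed as chromosomes separate, moved in the same directions as its kinase. Its liver signal was 36.0, 77.5 and 105 on day 0 and 16.0, 37.8 and 28.6 on day 7. It was lower in every animal, with an overlap between animal 61 on day 7 and animal 58 on day 0, and the day 7 spot of animal 58 was not well above background. The change was -1.36 ± 0.19 (log2, n = 3). In neutrophils the signal was 50.7, 25.1, 53.9 and 95.8 on day 0 and 136, 155, 129 and 152 on day 7. The 4 day 7 values were close together and all above the day 0 values, with a change of 1.49 ± 0.35 (log2, n = 4), or 2.82-fold.

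CCNA2, the cyclin that acts in S phase and up to mitotic entry, gave 20.5, 33.2 and 41.8 in liver on day 0 and 19.3, 11.5 and 18.5 on day 7. It was the 1 gene of the 7 whose day 7 liver values all lay below the day 0 values, a pattern that 8.03% of the 10933 probes tested in liver also showed. Animal 58 barely differed between days and its day 7 spot was not well above background. The change was -0.93 ± 0.30 (log2), with an SD over the 3 animals of 0.75. In neutrophils the values were 54.3, 50.3, 57.8 and 113 on day 0 and 96.7, 126, 119 and 248 on day 7. Each animal rose by a similar factor, from 1.78-fold to 2.51-fold, but the groups overlapped because animal 34 was already high on day 0. The change was 1.08 ± 0.24 (log2, n = 4), the smallest of the 7 genes in neutrophils.

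**Figure D1:**
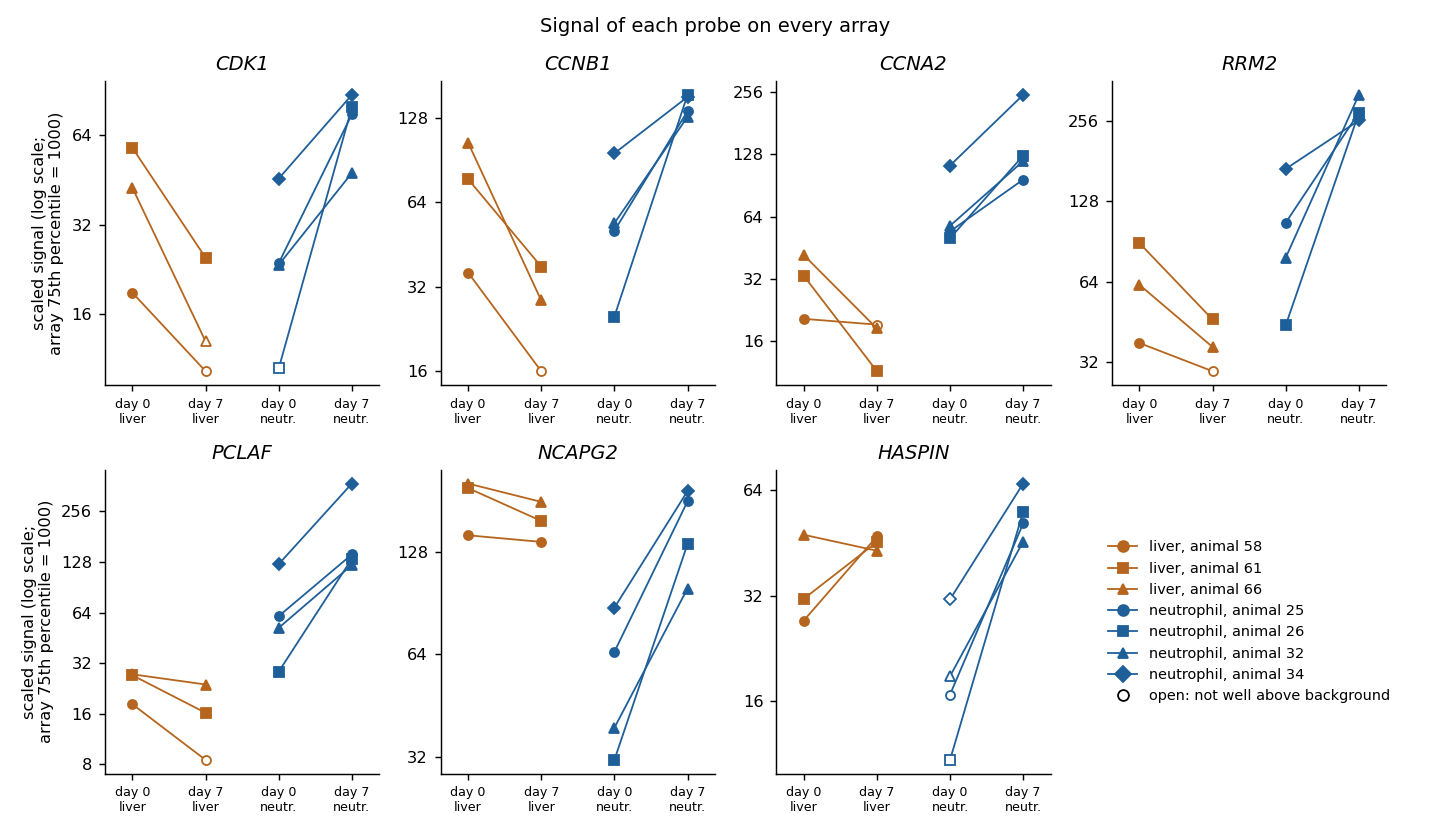
Scaled signal of each probe (log axis, array 75th percentile at 1000, a separate range in each panel) on day 0 and day 7 in liver (brown) and neutrophils (blue), with a line per animal and open symbols for spots not well above background. Neutrophil lines rise in all 7 panels, and liver lines fall in every animal in 6 panels, HASPIN being the other.

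RRM2 is the small subunit of ribonucleotide reductase, the enzyme that makes deoxynucleotides for DNA synthesis. Its liver signal was 37.7, 89.2 and 62.3 on day 0 and 29.6, 46.2 and 36.5 on day 7, lower in every animal with overlapping groups. The liver change was -0.69 ± 0.15 (log2, n = 3), and the day 7 spot of animal 58 was not well above background. In neutrophils the signal was 106, 43.9, 78.7 and 169 on day 0 and 274, 274, 320.3 and 257 on day 7. The day 0 values spread over 1.94 log2 units and the day 7 values over 0.32, and no day 7 value reached down to a day 0 value. The change was 1.66 ± 0.37 (log2, n = 4), or 3.16-fold, the largest of the 7 genes.

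PCLAF binds PCNA, the sliding clamp of DNA polymerases, during replication and repair. In liver its probe gave 18.2, 27.1 and 27.5 on day 0 and 8.49, 16.2 and 23.9 on day 7. It was lower in every animal, least in animal 66, and the day 7 spot of animal 58 was not well above background. The liver change was -0.68 ± 0.20 (log2, n = 3). In neutrophils it gave 61.0, 28.5, 51.9 and 124 on day 0 and 142, 134, 123 and 376 on day 7. Animal 34 stood above the others on both days, and its day 0 value slightly exceeded the day 7 value of animal 32, so the groups overlapped. The change was 1.57 ± 0.28 (log2, n = 4).

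NCAPG2, a subunit of the condensin II complex that compacts chromosomes, differed least between days in liver. Its liver signal was 143, 197 and 203 on day 0 and 137, 158 and 179 on day 7, all well above background. The change was -0.19 ± 0.11 (log2), with an SD over the 3 animals of 0.13, and was -0.12 without animal 61; a lower change was found for 24.5% of the probes tested in liver. In neutrophils the signal was 65.1, 31.3, 38.9 and 87.7 on day 0 and 180.0, 135, 99.9 and 193 on day 7. All day 7 values lay above all day 0 values, and the change was 1.52 ± 0.27 (log2, n = 4).

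HASPIN, a kinase that marks histones at the centromeres of mitotic chromosomes, did not follow the pattern in liver. It gave 27.2, 31.4 and 47.8 on day 0 and 47.3, 45.6 and 43.0 on day 7, higher in animals 58 and 61 and lower in animal 66. The change was 0.40 ± 0.21 (log2), with an SD over the 3 animals of 0.49, and was 0.19 without animal 58 and 0.67 without animal 66. In neutrophils it gave 16.7, 10.9, 18.9 and 31.3 on day 0, none of them well above background, and 51.5, 55.7, 45.7 and 66.9 on day 7, all well above background. The measured means differed by 1.59 on the log2 scale. Because day 0 has only a bound, each day 0 array entered with the larger of 2 signals. These were that of its dimmest spot that passed the background flag and that of the HASPIN spot. Against them the day 7 level was 2.43-fold higher, a mean over the animals on this scale and not a lower limit. With another background correction, normexp followed by quantile normalization, the change was 0.57 on the log2 scale.

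**Figure D2:**
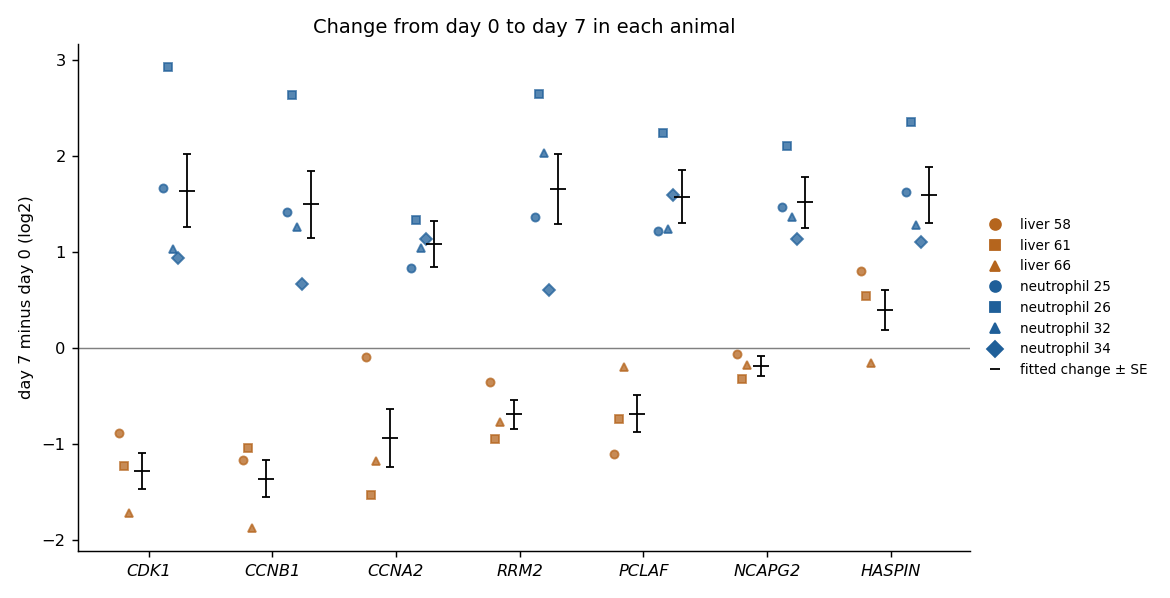
Day 7 minus day 0 on the log2 scale for each animal (brown, liver; blue, neutrophils), with the fitted change ± its standard error in black beside the points. Fitted neutrophil changes run from 1.08 to 1.66 and fitted liver changes from -1.36 to 0.40, with animal 26 highest for every gene in neutrophils.

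Taking the 7 probes together, 6 were lower on day 7 in every liver animal, as were 22.8% of all probes tested there, and the median change was -0.69 against -0.036 over all probes. In neutrophils 7 of 7 were higher on day 7 in every animal, against 11.3% of 9450 probes, 5 had every day 7 value above every day 0 value, against 4.89%, and the median change was 1.57 against -0.066. All 7 were tested in both tissues, and 6 were lower in every liver animal and higher in every neutrophil animal, as were 2.42% of 8841 probes. Since the genes were chosen for these directions, nothing is read from these shares. In liver, CDK1, CCNB1, CCNA2, RRM2 and PCLAF entered the tests through day 0 alone, and in neutrophils CDK1 and HASPIN entered through day 7 alone, because their other day had spots not well above background.

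On day 0 the same animal was lowest for all 7 genes in each tissue. In neutrophils on day 0, animal 26 was lowest and animal 34 highest for all 7 genes. Animal 26 then had the largest rise of all 7, with a median of 2.36 on the log2 scale, against 1.42 in animal 25, 1.26 in animal 32 and 1.098 in animal 34. The median SD of the 7 genes over the 4 animals was 0.79 on day 0 and 0.39 on day 7, with CCNA2 as the exception (0.54 and 0.59). In liver, animal 58 was lowest on day 0 for all 7 genes and had the smallest median fall, -0.35, against -0.95 in animal 61 and -0.77 in animal 66. Each change is counted from the day 0 value, so a low day 0 value by itself makes a rise larger and a fall smaller. The 7 genes were read on the same arrays, so they are not separate observations of an animal. The median over all tested probes lay between -0.040 and -0.015 in each liver animal and between -0.14 and 0.086 in each neutrophil animal. The day 7 liver array of animal 58 had a higher background than the others: its dimmest spot well above background had a processed signal of 38.7, against 12.6 to 15.5 on the other liver arrays, and 2 of the 7 genes were well above background on it.

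The 14 arrays had 57.1% to 76.7% of their 15208 spots well above background, lowest on the day 7 neutrophil array of animal 34. Day 0 arrays sat in the first row of arrays on each slide and day 7 arrays in the second row, and each tissue had a slide of its own, so position on the slide and day, and slide and tissue, cannot be told apart. The average day 7 minus day 0 shift at the spot rows of these probes, taken from a smooth trend over the 192 rows of each array, was -0.0083 to 0.097 in liver and 0.068 to 0.12 in neutrophils (log2). With that trend removed, the median change of the 7 genes was -0.79 in liver and 1.45 in neutrophils.

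The level over both days was compared between tissues as the mean of the 2 days in each animal. The genes were chosen on the change between the days, but this mean holds the same day 0 and day 7 values. Its p-values are therefore given as a description and not as independent support. Of the 7 genes, 5 differed at an adjusted p under 0.05 in limma, where 79.7% of 11544 probes did, so a difference of this kind was the rule on the array. PCLAF was 5.30-fold higher in neutrophils (log2 difference 2.41 ± 0.44, adjusted p = 0.00079), CCNA2 4.28-fold (2.10 ± 0.32, adjusted p = 0.000245) and RRM2 3.37-fold (1.75 ± 0.29, adjusted p = 0.000489). CCNB1 was 2.05-fold higher in neutrophils (1.04 ± 0.35, adjusted p = 0.0214), and NCAPG2 was 1.93-fold higher in liver (0.95 ± 0.30, adjusted p = 0.0169). For these 5 genes the 3 liver animals and the 4 neutrophil animals did not overlap, as was so for 79.6% of all probes. CDK1 (-0.79 ± 0.38, liver minus neutrophil, adjusted p = 0.084) and HASPIN (0.33 ± 0.24, adjusted p = 0.238) overlapped and did not pass.

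The order of the tissues depended on the day for CDK1 and CCNB1. On day 0 alone both were higher in liver, by 0.66 and 0.39 on the log2 scale, whereas the mean over both days was higher in neutrophils. The liver minus neutrophil difference on day 0 alone was -0.58 for RRM2 and 0.93 for HASPIN. Day 0 levels entered the choice of the genes, so these day 0 differences are given without tests. Over both days, CCNB1 lost its call in limma without animal 58 (-0.64, adjusted p = 0.0796). NCAPG2 lost its call without animal 61 or 66 (0.91 and 0.85, adjusted p = 0.0527 and 0.0594). CDK1 passed without animal 61 (-1.15, adjusted p = 0.0237) and HASPIN without animal 34 (0.51, adjusted p = 0.0248). The HASPIN difference turned to -0.081 with another background correction, normexp followed by quantile normalization. With it the differences were also smaller for PCLAF (-1.12), RRM2 (-1.20), CCNA2 (-0.91) and CCNB1 (-0.56), though these kept their calls in limma. Each of these genes had a day 7 liver spot not well above background, so the size of their folds depends on the correction.

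The remaining cell cycle machinery was followed through 8 lists of 138 genes by role, of which 64 had a probe. In liver 57 of them were tested: 3 rose and 1 fell at an adjusted p under 0.05 in limma, against 2.67% and 1.31% of all probes, and the median was -0.18 against -0.036 over all probes. By sign alone, 44 were lower and 13 higher, and several entered the tests through day 0 alone because some day 7 spots were not well above background. In every liver animal 24 were lower and 6 higher, against 22.8% and 17.7% of all probes. Over the whole array limma called 435 liver probes, or 3.98%, and none without animal 58, 102 without animal 61 and 163 without animal 66. In neutrophils 50 were tested and 0 passed, with 34 higher and 16 lower and a median of 0.13 against -0.066; 15 were higher and 1 lower at an unadjusted p under 0.05, while 8.81% of all probes were higher at that level. Of all 9450 probes limma called 0, or 0%, in neutrophils, although 1268, or 13.4%, had an unadjusted p under 0.05. In each liver animal between 38 and 40 of the 57 were lower, and in each neutrophil animal between 27 and 36 of the 50 were higher. In every neutrophil animal 14 were higher and 1 lower, against 11.3% and 13.2% of all probes.

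The liver genes that rose were CDC7, the kinase that fires replication origins, TOP2B, a topoisomerase also present in non-dividing cells, and POLA2, a subunit of the DNA polymerase that makes primers. CDC7 passed the background flag on none of the 3 day 0 liver arrays and on all 3 day 7 arrays (fitted change 3.68 ± 0.21 on the log2 scale, adjusted p = 0.00789 in limma). Its bound of 3.51-fold, set by the dimmest spots that passed the flag, still holds the trend over rows given below, so it is not a lower limit. TOP2B rose by 1.67 ± 0.13 (adjusted p = 0.0123) and POLA2 by 0.67 ± 0.10 (adjusted p = 0.0432). CDKN2D, an inhibitor of the G1 kinases, fell by 0.68 ± 0.10 (adjusted p = 0.0447). The CDC7 and TOP2B spots lie in rows 1 and 2 at the edge of the array, and with the trend over rows removed CDC7 changed by 2.27 (adjusted p = 0.0475; 0.66 with normexp, adjusted p = 0.0374) and TOP2B by 0.35 (adjusted p = 0.312). The calls of POLA2 and CDKN2D were also lost with the trend removed (adjusted p = 0.191 and 0.127), and none of the 4 held without animal 58 (adjusted p = 0.109 to 0.231). TOP2B also missed without animal 61 (adjusted p = 0.0502), and POLA2 and CDKN2D without animal 61 or 66 (adjusted p = 0.148 to 0.174).

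**Figure D3:**
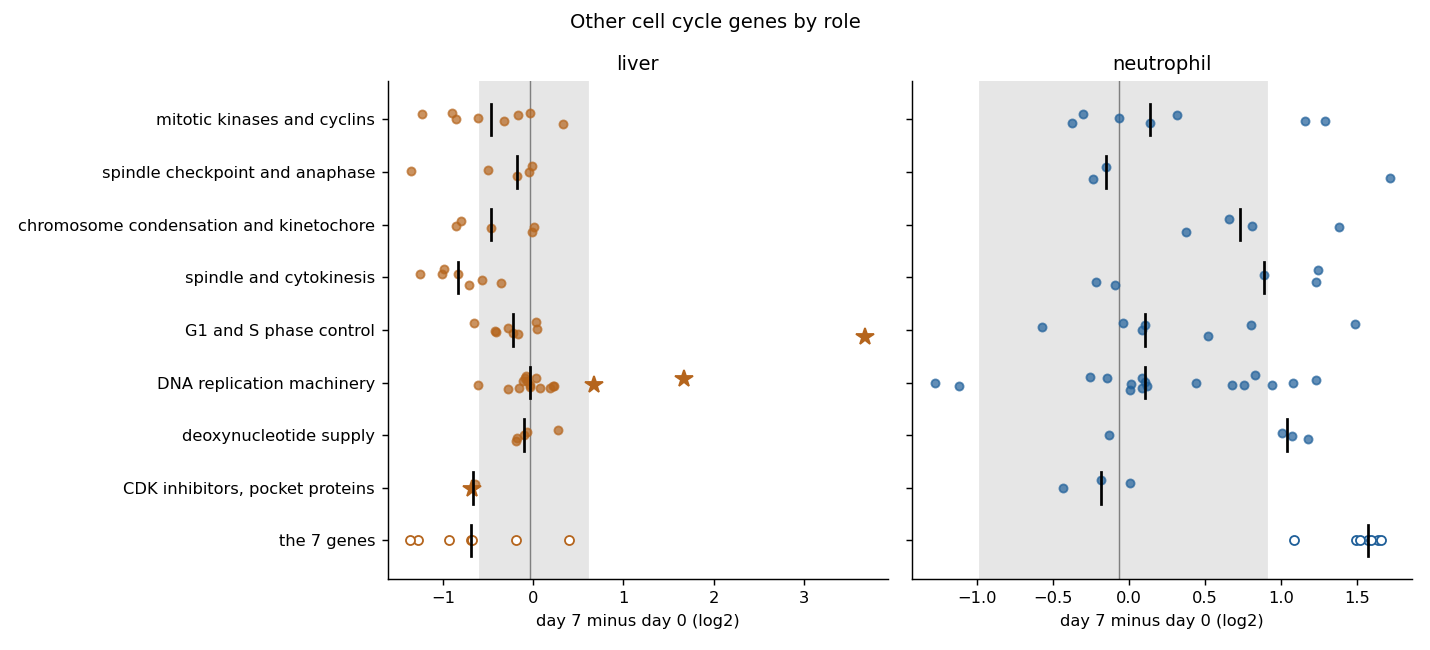
Fitted day 7 minus day 0 change (log2) of each tested cell cycle gene by list, in liver (left) and neutrophils (right), with list medians as black bars, stars for genes with an adjusted p under 0.05 and the 7 genes as open circles. The grey line and band are the median and the 5th to 95th percentile of all probes tested; the spindle and cytokinesis list has medians of -0.83 in liver and 0.89 in neutrophils.

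By role, none of the 8 mitotic kinases, cyclins and regulators tested in liver passed, 7 of 8 being lower with a median of -0.46. NEK2, a centrosome kinase, had -1.23 ± 0.28 (adjusted p = 0.108) and AURKB, the kinase of the chromosomal passenger complex, had -0.61 ± 0.16 (adjusted p = 0.143). On day 7 NEK2 passed the background flag on 1 of the 3 liver arrays and AURKB on 2, so both values rest partly on signals near background. In neutrophils none of 7 passed, with a median of 0.14: CKS1B, a small CDK-binding protein, had 1.29 ± 0.28 and AURKB 1.16 ± 0.35. Of the spindle checkpoint and anaphase genes, none of 5 passed in liver (median -0.18), led by CDC27, of the anaphase-promoting complex, at -0.50 ± 0.14. CDC27 passed the background flag on 2 of the 3 day 7 liver arrays. BIRC5, survivin, had -1.35 ± 0.43 and passed the background flag on none of the 3 day 7 arrays, which gives no fold (adjusted p = 0.209). In neutrophils none of 3 passed (median -0.15), and MAD2L1, a checkpoint protein, had 1.71 ± 0.32 (adjusted p = 0.298) beside PTTG1, securin, at -0.24 ± 0.24.

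The chromosome condensation and kinetochore list had a median of -0.47 in liver (0 of 5 passed) and 0.73 in neutrophils (0 of 4). NCAPH, of condensin I, had -0.47 ± 0.10 in liver and 0.81 ± 0.36 in neutrophils, and SPC24, of the kinetochore's microtubule-binding complex, had -0.85 ± 0.24 and 1.38 ± 0.31. For the spindle and cytokinesis list the medians were -0.83 (0 of 7) and 0.89 (0 of 5). ECT2, an activator of the cleavage furrow, had -1.004 ± 0.24 in liver, and STMN1, a regulator of microtubules, had -0.56 ± 0.20 in liver and 1.23 ± 0.30 in neutrophils. PRC1, which bundles the central spindle, had 1.24 ± 0.31 in neutrophils. None of these values passed (adjusted p from 0.0865 to 0.38). On day 7 NCAPH and ECT2 passed the background flag on 2 of the 3 liver arrays. Other genes of both lists also had dim day 7 spots in liver, so the liver medians rest partly on signals near background.

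Genes of earlier cell cycle steps were grouped in 3 further lists. In liver the median was -0.22 for G1 and S phase control, where CDC7 alone of 9 passed, -0.031 for the replication machinery, where TOP2B and POLA2 of 16 passed, and -0.10 for deoxynucleotide supply, where 0 of 5 passed. In the last list RRM1, the large subunit that pairs with RRM2, had 0.27 ± 0.15 and TYMS, thymidylate synthase, had -0.18 ± 0.10 in liver. In neutrophils 0 of 7, 0 of 17 and 0 of 4 passed, with medians of 0.11, 0.10 and 1.04. The leading neutrophil values were GMNN, an inhibitor of origin licensing, at 1.49 ± 0.33, E2F3, a transcription factor of S phase entry, at 0.80 ± 0.38, MCM5, of the replicative helicase, at 1.23 ± 0.35, ORC6, of the origin recognition complex, at 0.83 ± 0.26, RRM1 at 1.18 ± 0.30 and DUT, which removes dUTP, at 1.07 ± 0.29. Of the CDK inhibitors and pocket proteins, CDKN2D alone of 2 passed in liver, and 0 of 3 passed in neutrophils, where CDKN2B had -0.43 ± 0.27 and CDKN2D -0.18 ± 0.25.

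**Figure D4:**
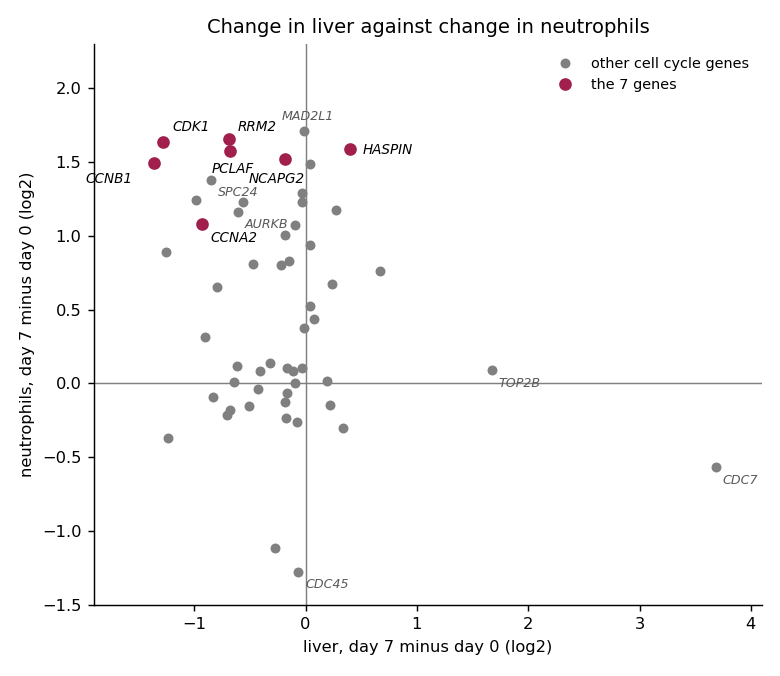
Fitted change in liver (horizontal axis, log2) against fitted change in neutrophils (vertical axis, log2) for the 7 genes (red) and the 48 other cell cycle genes tested in both tissues (grey). The upper left quadrant, lower in liver and higher in neutrophils, holds 6 of the 7 and 24 of the 48.

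Of the 48 list genes tested in both tissues, 24 were lower in liver and higher in neutrophils, or 50%, while 23.9% of all 8841 probes were. For 7 of them (AURKB, CCNB2, DUT, ORC6, SPC24, STMN1 and TYMS) every animal of both tissues went that way, as was so for 2.42% of all probes. Several of the 48, among them AURKB, CCNB2 and NEK2, entered the liver test through day 0 alone, which favours lower day 7 values. CDC7 entered it through day 7 alone. The part of this filter in the shares was not tested, and the lists were chosen with earlier results of these data known. In the test of the difference between the tissues' changes, CDC7 alone of the 48 passed, in the other direction, at 4.25 ± 0.41 for liver minus neutrophil (adjusted p = 0.00645). It lost that call with the trend over rows removed (3.06, adjusted p = 0.0748) and with normexp and quantile normalization (0.88, adjusted p = 0.108). SPC24 came next, at -2.23 ± 0.42 (adjusted p = 0.0505). Of all probes, 1.17% passed that test, 0.43% with a liver change below the neutrophil change.

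Among 4571 genes with a symbol tested in both tissues, the 5 whose change in the 7 animals lay nearest to the median profile of the 7 genes were found by the root mean square difference in log2 units. They were AURKB (0.39), SPC24 (0.41), LBH (0.43), a transcription cofactor, ARHGEF39 (0.44) and HS3ST1 (0.45), a heparan sulfate sulfotransferase, where the median over all candidates was 1.43. AURKB and SPC24 are also in the cell cycle lists. The likeness rests on 7 animals, and gives no test.

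Transcripts of other cell types also changed between the days, and their part in the changes of the 7 genes was not tested. In the neutrophil samples the summed scaled signal of B and plasma cell markers (4 of 9 on the array) ran from 1959 to 3517 in the day 0 group and from 3800.2 to 8088 in the day 7 group, higher in all 4 animals by 1.20, 0.96, 0.81 and 1.20 on the log2 scale. The sum of T and natural killer cell markers (9 of 10 on the array) ran from 26361 to 52655 and then from 42211 to 129396, higher in all 4 animals by 1.11, 0.68, 0.40 and 1.30. The median rise of the 7 genes was 1.42, 2.36, 1.26 and 1.098 in the same animals. Each of these lymphocyte markers on the array was well above background on all neutrophil arrays but 1 day 7 array for NKG7, and none passed in limma, 3 T and natural killer cell markers and 1 B and plasma cell marker being higher at an unadjusted p under 0.05; JCHAIN, the joining chain of secreted antibodies, had 1.56 ± 0.28 and GZMB, a cytotoxic granule protease, 1.31 ± 0.27 (adjusted p = 0.298 for both). Mature neutrophil markers (8 of 11 on the array) summed to 813008 to 977325 on day 0 and 650132 to 1370420 on day 7, with changes of -0.34, -0.069, 0.75 and 0.49. Immature neutrophil markers, of which 4 of 12 were on the array (LTF, CAMP, BPI and PGLYRP1), changed by -0.43, -0.20, 0.77 and 2.13. The sum for fibroblasts was higher in all 4 animals (63 to 85 on day 0 and 139 to 622 on day 7), but of its 5 markers COL1A2, COL3A1, DCN and LUM were well above background on none of the day 0 arrays, and COL1A1, the 1 tested, had 0.085 ± 0.34 and was lower in 3 of 4 animals.

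In liver the sum of the immature neutrophil markers was lower in all 3 animals, by -1.76, -3.45 and -1.03 on the log2 scale (2014 to 8073 on day 0 and 593 to 1142 on day 7). LTF was the 1 marker of this list tested in liver, with -2.11 ± 0.48 (adjusted p = 0.109 in limma). CAMP and PGLYRP1 were not well above background on any liver array, nor was BPI on any day 7 liver array. Skeletal muscle markers (9 of 9 on the array) were higher by 6.08 to 6.92 in the same animals, from sums of 45 to 158 on day 0 to 4580 to 19140 on day 7, and all 9 rose at an adjusted p under 0.05 in limma. On day 0 CKM, MB, MYH1, MYL1 and TNNC2 were well above background on none of the liver arrays, so the day 0 sums hold signals near background and the size of the rise is not exact. On day 7 all 9 were well above background on every liver array. The hepatocyte sum was higher by 0.41 to 0.70, and T and natural killer cell markers by -0.025 to 0.12. Liver samples carried all 12 hepatocyte markers well above background, and neutrophil samples carried all 8 mature neutrophil markers on the array, so both labels matched their defining markers.

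**Figure D5:**
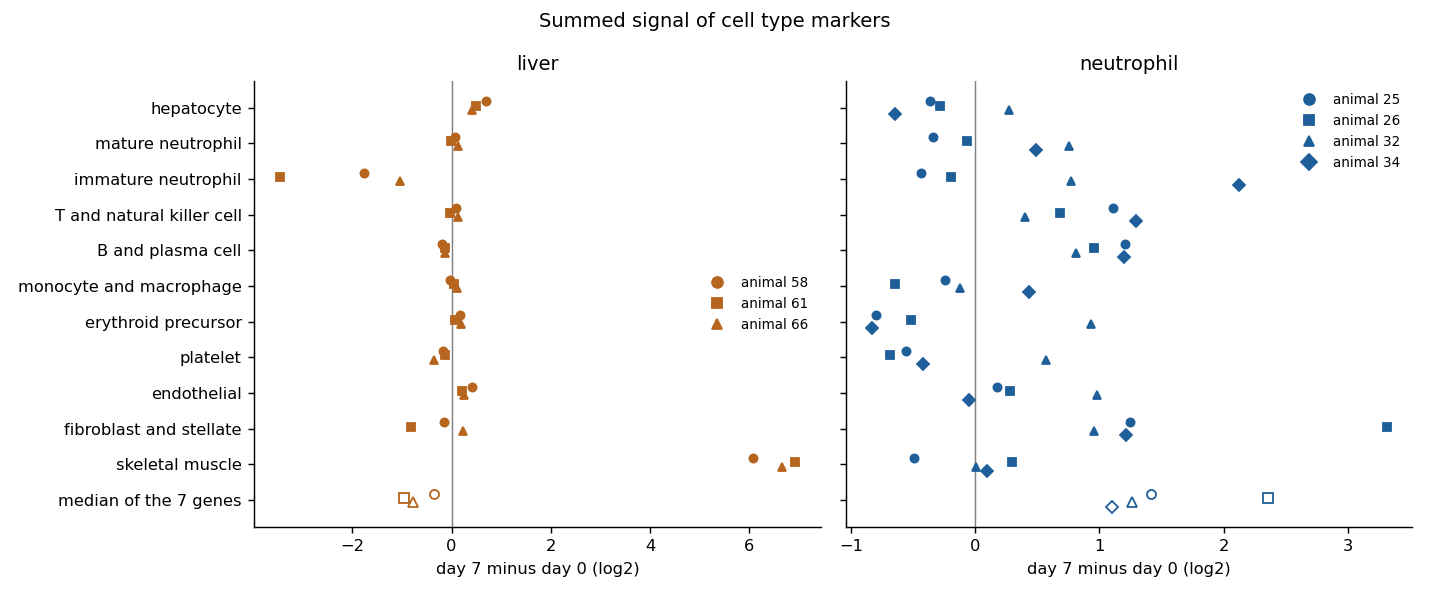
Day 7 minus day 0 (log2) of the summed scaled signal of each cell type's markers, with a point per animal, in liver (left, brown) and neutrophils (right, blue), and the median change of the 7 genes as open symbols. B and plasma cell and T and natural killer cell sums are above 0 in all 4 neutrophil animals. The immature neutrophil sum, of whose markers LTF alone was tested in liver, is below 0 in all 3 liver animals.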

How the data were processed

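The members and gene lists were chosen with earlier results of these data known. Per the file headers, the deposited spot intensities had been background-subtracted and spatially detrended by Agilent Feature Extraction 9.5.1.1 (9.5 in the submitters' processing notes). Mean spot and median background intensities, for 1 alternative, are uncorrected per the file headers, as are the other columns of flags and positions. The authors' deposited log2 values equal log2 of these signals minus a constant per array. A genome build was not given in the sources used here.

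Each array's processed intensities were put on the log2 scale and set against their 75th percentile, leaving out control and outlier spots. Probes that passed the background flag on all arrays of 1 or more of the groups compared (with several spots, at least 50% of them) were tested with limma 3.58.1 (R 4.3.3; lmFit, eBayes; two-sided, Benjamini-Hochberg, threshold 0.05) with the animal as a block; tissue levels used animal means. Errors after ± are standard errors of these fits over 3 liver and 4 neutrophil animals, and the number of arrays limits their precision. The labels pair the days by animal (correlation of paired deviations 0.66, 0.36 and 0.68 in liver and 0.63, 0.36, -0.021 and 0.25 in neutrophils). Symbols came from the files and a RefSeq table of the assembly ARS-UCD2.0, used for names alone. Named genes were the members, the genes of each list past the threshold in a tissue (at most 4) or else its 2 with the smallest p, and the 5 nearest profiles; BIRC5 follows this rule. Other genes (JCHAIN, GZMB and the 7 opposite in every animal) were named after their values were seen. Tested on simulated data, the fits recovered 65 of 100 probes changed by 1 on the log2 scale in liver and 86 of 100 in neutrophils. The simulated noise was drawn alike for both tissues. The fitted errors of the 7 genes were 0.11 to 0.30 in liver and 0.24 to 0.38 in neutrophils. These recoveries therefore do not hold for the real arrays, and 0 calls in neutrophils is not read as no change.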

Additional observations from a re-analysis of the deposited data

Results flagged for a closer look

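On day 7, the PCLAF level of neutrophil animal 34 (-1.41 on the log2 scale relative to the array's 75th percentile) stood apart from the other 3 animals. Chance sets a sample apart in this way in about 1 of 20 groups. In 6 genes every liver animal fell and every neutrophil animal rose, and the liver change minus the neutrophil change, which was not tested because the genes were chosen for it, was -2.91 for CDK1, -2.85 for CCNB1, -2.35 for RRM2, -2.25 for PCLAF, -2.02 for CCNA2 and -1.71 for NCAPG2 on the log2 scale. For CDC7 the difference was 4.25 in the opposite direction, past the threshold in limma (adjusted p = 0.00645).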

How the results depend on the processing

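The 7 genes kept the sign of their change in both tissues under every alternative in which they were tested. Normexp with quantile normalization made it smaller: the median of the 7 was -0.20 in liver and 0.84 in neutrophils. Leaving out an animal moved it between -0.86 and -0.64 in liver and between 1.32 and 1.75 in neutrophils. With only probes well above background on every array, 2 of the 7 remained in liver (NCAPG2 and HASPIN) and 5 in neutrophils. For the level over both days, liver minus neutrophil, the sign turned on day 0 arrays alone for CDK1 (0.66) and CCNB1 (0.39) and with normexp for HASPIN (-0.081). NCAPG2 lost its call with normexp (0.34) and with quantile normalization (0.69).

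Calls over the array also depended on the processing. The 435 liver calls became 210 with no replicate block, 177 in 1 fit over all arrays, 36 with the trend over spot rows removed, 0 with no filter on dim probes (1852 at an unadjusted p under 0.05) and 0 to 163 with an animal left out, 0 being without animal 58. The 0 neutrophil calls became 24 in 1 fit over all arrays and stayed 0 without the block and with any animal left out. The 103 calls for the difference became 66 with no filter, 10 with the trend removed and 15 to 266 with an animal left out. The 9196 level calls became 5642 among probes well above background on every array, where fewer were tested, and 8618 to 9756 with an animal left out.

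The median of the cell cycle lists kept its sign. In liver (-0.18) it was -0.13 with normexp, -0.093 for probes well above background on every array and -0.22 to -0.20 with an animal left out. In neutrophils (0.13) it was 0.34 with no filter, 0.37 for probes well above background on every array and 0.16 to 0.37 with an animal left out. For the difference (-0.49) it was -0.28 with normexp, -0.66 for probes well above background on every array and -0.63 to -0.46 with an animal left out. Where no reason is given, the cause was not tested. Signals near background limit the liver day 7 values of 5 genes and the neutrophil day 0 values of HASPIN and, in 1 animal, CDK1.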
